A study of Homo sapiens with 6 samples.

Results

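The BCL2 family decides at the mitochondrial outer membrane whether a cell dies by apoptosis. The effectors BAX and BAK1 form pores in that membrane, antiapoptotic members hold the effectors and their activators in check, and BH3-only members start the process by binding to either side through a short helix, the BH3 domain. Blood cell precursors are known to depend on BCL2L1 and MCL1 for survival, and BCL2 is a drug target in acute myeloid leukemia. Here, the RNA levels of 10 family members were examined in HEL, a human erythroleukemia cell line. The members were taken by gene symbol and by role: the antiapoptotic genes BCL2, BCL2L1, MCL1 and BCL2A1, the effectors BAX and BAK1, and the BH3-only genes BCL2L11, BBC3, PMAIP1 and BID. All 10 were among the 31999 genes of the deposited table.

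HEL cells had been transduced with a lentiviral small hairpin RNA against TMIGD2 (shTMIGD2, 3 libraries) or with a non-targeting control hairpin (shCtrl, 3 libraries), and poly(A) RNA was sequenced. TMIGD2 is an immunoglobulin domain receptor, and the experiment asked how its loss changes gene expression in leukemia cells. Both groups carried a hairpin, and transduced lines were selected with puromycin. Which hairpin against TMIGD2 was used for these libraries is not stated in their labels. The level used here is the authors' mean log2 CPM, where CPM is a gene's count scaled to the total of its library, over all 6 libraries. It pools shTMIGD2 and shCtrl, so the values below describe HEL cells of both groups together, and differences between the groups are not analysed here. It carries no value per library and no depth, so no spread, interval or test accompanies a level, and neighbours in an order cannot be said to differ. A low level in the pool cannot show whether few cells or little RNA per cell gave it. The mean log2 CPM ran from -3.76 to 13.92, and the lowest value, equal to 0.0736 CPM, is the floor of the table.

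The BH3 core unites the 3 roles, and the bases that code for it are shown because they show both what the members share and where BBC3 and BCL2A1 differ. Each line gives 30 coding bases of the canonical transcript (GENCODE 44, GRCh38) in the sense direction, with capitals on the codon of the leucine and on the pair of codons, glycine and aspartate in the common form, that close the core.
BCL2: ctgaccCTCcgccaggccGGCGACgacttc
BCL2L1: caagcgCTGagggaggcaGGCGACgagttt
MCL1: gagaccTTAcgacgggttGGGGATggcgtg
BCL2A1: aagaatCTGaagtcatgcTTGGACaatgtt
BAX: gagtgtCTCaagcgcatcGGGGACgaactg
BAK1: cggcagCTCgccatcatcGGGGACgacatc
BCL2L11: caagagTTGcggcgtattGGAGACgagttt
BBC3: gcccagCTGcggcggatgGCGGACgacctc
PMAIP1: actcaaCTCaggagatttGGAGACaaactg
BID: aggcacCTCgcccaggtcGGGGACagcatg

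The common core, a leucine followed by any 3 residues, glycine and aspartate, was found once in 8 of the 10 proteins. In BBC3 the residue before the aspartate was an alanine, and in BCL2A1 a leucine. These cores are not rare patterns by themselves. The common form occurred in 13.7% of 19742 canonical human proteins, the form that also allows alanine in 24.8%, and a leucine and an aspartate at this distance, the only form that took in BCL2A1, in 77.7%. The match in BCL2A1 rests on this widest form alone, which is too common to mark a BH3 core by itself. The core began at residue 97 of 239 in BCL2, 90 of 233 in BCL2L1, 213 of 350 in MCL1 and 52 of 175 in BCL2A1. It lay at residue 63 of 192 in BAX and 78 of 211 in BAK1. In the BH3-only proteins it lay at residue 152 of 198 in BCL2L11, 141 of 193 in BBC3, 29 of 54 in PMAIP1 and 90 of 195 in BID. PMAIP1 was by far the shortest of the 10 proteins. In each gene the 30 bases fell within 1 exon, for example exon 2 of 3 in BCL2 (chr18:63318355-63318384, minus strand) and exon 3 of 4 in BCL2L11 (chr2:111150097-111150126, plus strand).

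Of the 10 members, 9 reached 1 CPM, a mean log2 CPM of 0, as did 43.8% of all genes in the table, a share that includes many noncoding genes. Against the 16656 protein coding genes matched to GENCODE, whose median was 3.62 on the log2 CPM scale, 8 of the 10 lay above the median. BCL2L1 and MCL1 were the highest of the 10 and BCL2A1 the lowest. The plot of mean log2 CPM shows this spread beside all genes.

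**Figure D1:**
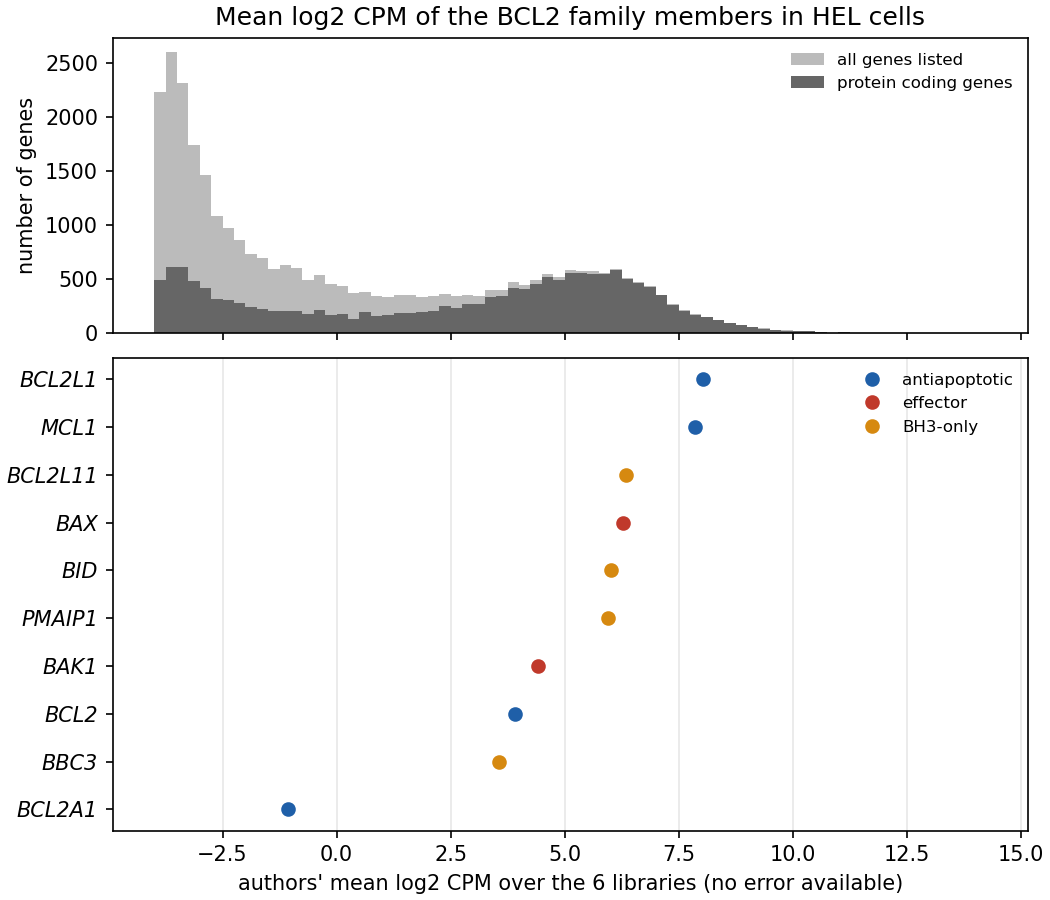
Top, number of genes by mean log2 CPM over the 6 libraries, for all 31999 genes (light) and for protein coding genes (dark). Bottom, the 10 members on the same axis, coloured by role, with no error since the table holds 1 pooled value per gene; BCL2L1 and MCL1 lie at 8.03 and 7.87, BCL2A1 at -1.06, and the other 7 between 3.57 and 6.35.

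CPM grows with transcript length, so levels of different genes were compared as CPM per kilobase of exon, the mean CPM divided by the joint length of all annotated exons. On this scale the order from high to low was BCL2L1, MCL1, BAX, PMAIP1, BID, BCL2L11, BAK1, BBC3, BCL2 and BCL2A1. The order of MCL1 and BAX turned with the length. Per length of the longest transcript BAX had 57.3 and MCL1 51.4, and per length of the canonical transcript 97.9 and 59.2. Per kilobase of exon, the median of the 10 members was 13.4 CPM, beside 2.18 over protein coding genes.

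Among the antiapoptotic genes, BCL2L1 and MCL1 were high, BCL2 was near the median of protein coding genes and BCL2A1 was low. BCL2L1 encodes BCL-XL, the protein best known for keeping erythroid precursors and platelets alive. It lies on the minus strand of chromosome 20 (31664452 to 31723989, GRCh38, as for all positions below) and had a mean log2 CPM of 8.03, or 261 CPM. Per length this was 62.3 CPM per kilobase, above 96.5% of protein coding genes.

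MCL1 encodes a short-lived antiapoptotic protein that binds BAK1 and several BH3-only proteins. It is on the minus strand of chromosome 1 (150560895 to 150579738). Its mean log2 CPM was 7.87, or 234 CPM, and its level per length 37.6 CPM per kilobase. BCL2L1 was thus 1.66-fold above MCL1 per length and 1.12-fold above it in CPM.

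BCL2, the founding member of the family, was far below both. It spans chromosome 18 from 63123346 to 63320128 on the minus strand and had a mean log2 CPM of 3.91, or 15.0 CPM. With 12612 bases its exons are the longest of the 10 genes. The level of BCL2 per length was 1.19 CPM per kilobase, above 42.9% of protein coding genes. In CPM BCL2 lay above 52.6% of them. BCL2L1 was 52.4-fold and MCL1 31.6-fold higher per length. The gap depended on the length used. BCL2L1 was 17.9-fold higher than BCL2 with the coding length alone and 17.4-fold higher in CPM.

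BCL2A1 encodes BFL-1, an antiapoptotic protein known mainly from lymphoid and mature myeloid cells as a target of NF-kB. It is on the minus strand of chromosome 15 (79960892 to 79971196) and had a mean log2 CPM of -1.06, or 0.480 CPM. This lay above the floor of the table and above 26.1% of protein coding genes. Its level per length was 0.482 CPM per kilobase, above 35.6% of these genes. Of the summed level per length of the 4 antiapoptotic genes, BCL2L1 and MCL1 made up 61.3% and 37.0%, BCL2 1.17% and BCL2A1 0.475%.

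The effectors differed from each other as well. BAX, which moves from the cytosol to mitochondria when activated, is on the plus strand of chromosome 19 (48954815 to 48961798). It had a mean log2 CPM of 6.28, or 77.9 CPM, and a level per length of 30.1 CPM per kilobase. BAK1, which sits in the outer membrane already, is on the minus strand of chromosome 6 (33572547 to 33580293). It had a mean log2 CPM of 4.43, or 21.5 CPM, and a level per length of 9.72 CPM per kilobase. BAX was 3.10-fold above BAK1 per exon length and 9.88-fold above it per length of the canonical transcript, since the annotated exons of BAX, 2587 bases, are far longer than its canonical transcript of 795 bases.

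Among the 4 BH3-only genes, levels per length ran from 3.73 CPM per kilobase in BBC3 to 28.2 in PMAIP1. BCL2L11 encodes BIM, which binds all antiapoptotic members and can activate the effectors. It lies on the plus strand of chromosome 2 (111119378 to 111168444), with a mean log2 CPM of 6.35, or 81.4 CPM. It was the third highest member in CPM and, with 6742 bases of exon, the sixth per length, at 12.1 CPM per kilobase.

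PMAIP1 encodes NOXA, a partner chiefly of MCL1. It is on the plus strand of chromosome 18 (59899996 to 59904305), and had a mean log2 CPM of 5.95, or 61.7 CPM. Its level per length, 28.2 CPM per kilobase, was the highest of the BH3-only genes. In CPM PMAIP1 was below BCL2L11 and BID. Per length of the canonical transcript PMAIP1 had 32.5 and BID 29.9. BID, which caspase-8 cuts into its active form and which so links death receptors to mitochondria, is on the minus strand of chromosome 22 (17734138 to 17774770). It had a mean log2 CPM of 6.03, or 65.2 CPM, and 14.8 CPM per kilobase.

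BBC3 encodes PUMA, which binds all antiapoptotic members. It is on the minus strand of chromosome 19 (47220822 to 47232766). It was the lowest of the 4, with a mean log2 CPM of 3.57, or 11.9 CPM, and 3.73 CPM per kilobase. Within the summed level per length of the BH3-only genes, PMAIP1 made up 48.0%, BID 25.1%, BCL2L11 20.5% and BBC3 6.35%.

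Summed by role, the antiapoptotic genes made up 50.7% of the level per length of the 10 members, the BH3-only genes 29.4% and the effectors 19.9%. These shares rested on few genes and on the length used. Without BCL2L1 the antiapoptotic share was 28.5%, without BAX the effector share 5.72%, and without PMAIP1 the BH3-only share 17.8%. With coding length the BH3-only genes were level with the antiapoptotic ones, at 45.2% and 43.0%, because the coding length of PMAIP1 is 162 bases. With the length of the canonical transcript the effectors, at 30.3%, stood above the BH3-only genes, at 23.8%, so the order of these roles turned with the length. The effector share ran from 11.8% with coding length to 30.3%. RNA shares of this kind do not give shares of protein.

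**Figure D2:**
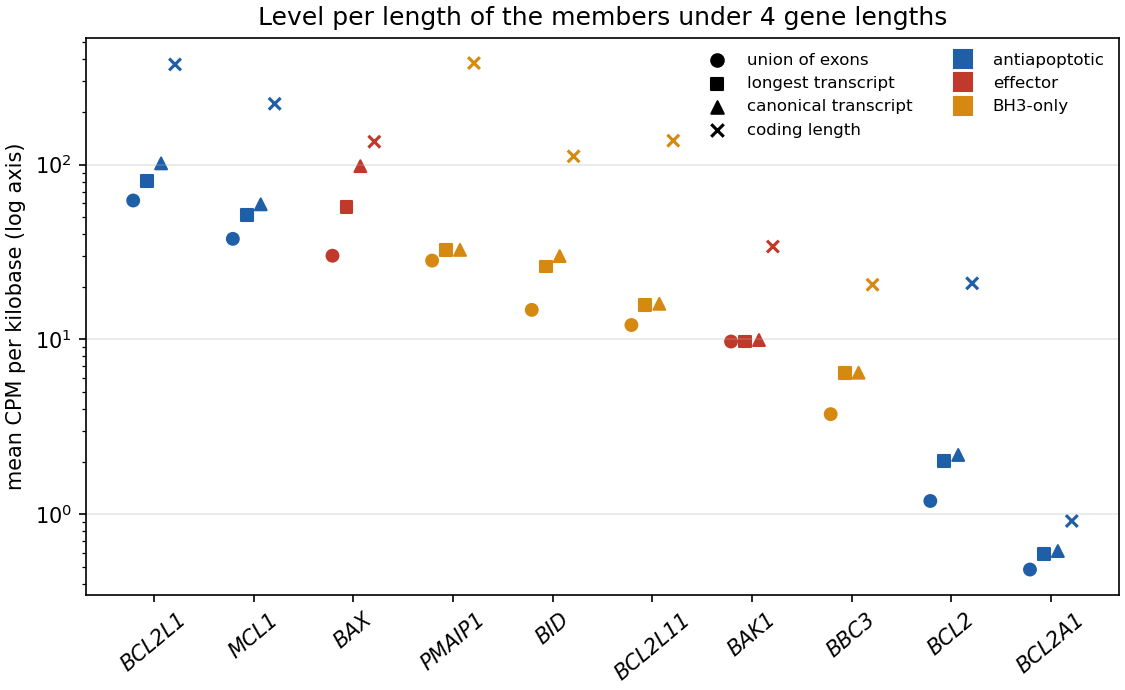
Mean CPM per kilobase (log axis) of the 10 members, ordered by the value per union of exons, with 1 symbol for each of 4 lengths and colour for the role. BCL2L1 is at 62.3 per union of exons and BCL2A1 at 0.482; BCL2A1 is lowest under all 4 lengths, while PMAIP1 moves from 28.2 per exon length to 381, the highest of the 10, per coding length.

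Some members share exon sequence with other genes. Of the exon bases of BCL2L1, 41.3% are also exon of ABALON, a noncoding RNA on the opposite strand, which had 8.42 CPM of its own in the table. Of those of BCL2L11, 10.8% overlap MIR4435-2HG, also on the opposite strand, at 153 CPM. MCL1 shares 5.27% with ADAMTSL4-AS1 on its own strand, at 0.269 CPM, and 0.691% with ADAMTSL4 on the opposite strand. BAK1 shares 4.11% with GGNBP1, at 0.0999 CPM, and BBC3 shares 2.51% with MIR3190 and 2.39% with MIR3191. BCL2, BCL2A1, BAX, PMAIP1 and BID overlap no exon of another gene in GENCODE 44. The library kit keeps strand, but whether the counting used it is not given in the sources used here. The levels of BCL2L1 and BCL2L11 are uncertain to that extent. The overlap of MCL1 with ADAMTSL4-AS1 is on the same strand, so strand cannot separate their reads there. Overlaps in the annotation used for counting were not examined.

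Of 13 other family genes, 7 reached 1 CPM, and their median level, 0.505 CPM per kilobase, was below that of the 10 members. The highest were BNIP3L, a mitophagy receptor of maturing red cells, at 26.5 CPM per kilobase and BCL2L12 at 19.3, both above 6 of the 10 members. The lowest were HRK, a BH3-only gene known from neurons, at 0.0107 CPM per kilobase and BCL2L15 at 0.0179. HRK, at a mean log2 CPM of -3.76, was within rounding of the floor. BCL2L2, which encodes the antiapoptotic BCL-W, had 3.11 CPM per kilobase, above BCL2 on this scale. In CPM BCL2L2 and BCL2 were level, at 15.1 and 15.0. BOK, a relative of the effectors, had 0.0628, and the BH3-only genes BAD, BMF and BIK had 4.21, 0.505 and 0.138 CPM per kilobase. BCL2L2, BOK, BAD, BMF and BIK were named after their values were seen.

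Of the other pathway lists, the list of mitochondrial genes had the highest median level per length. Of 8 genes for outer membrane channels and for proteins released from mitochondria, 7 were in the table, all at 1 CPM or above, with a median of 52.3 CPM per kilobase. The channel genes VDAC1 and VDAC2 were highest, at 139 and 65.3, and ENDOG and AIFM1 lowest, at 5.63 and 7.09. DIABLO was not analysed here. All 6 genes of the apoptosome and the caspases reported here reached 1 CPM, from 2.61 (CASP10) and 3.10 (CASP9) to 6.55 (CASP8) and 7.34 (CASP6) CPM per kilobase. APAF1, the scaffold on which cytochrome c activates caspase-9, had 5.69, and was named after its value was seen.

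Among 7 inhibitor of apoptosis genes, 6 reached 1 CPM. BIRC5, which encodes the mitotic protein survivin, was highest at 45.3 CPM per kilobase, followed by BIRC2 at 14.2. NAIP was at 0.208, and BIRC7, the lowest, had a mean log2 CPM of -3.76, within rounding of the floor. Of 6 genes of the death receptor pathway (4 receptors, the adaptor FADD and the caspase-8 regulator CFLAR), all 6 reached 1 CPM, with TNFRSF1A and TNFRSF10A highest at 19.1 and 10.1 CPM per kilobase, and FAS and TNFRSF10B lowest at 0.165 and 0.532. The exons annotated for FAS sum to 29313 bases, which lowers its value per length.

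Of 7 reported genes known to regulate members, all 7 reached 1 CPM. HUWE1, a ubiquitin ligase of MCL1, and FOXO3, a transcription factor that can activate BCL2L11 and BBC3, were highest at 24.7 and 13.4 CPM per kilobase. FBXW7, another ligase for MCL1, and MDM2, also a ubiquitin ligase, were lowest at 1.80 and 5.08. CREB1, whose product can activate BCL2 and MCL1 transcription, had 5.12 and was named after its value was seen. The plot of the pathway lists sets these genes beside the members.

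**Figure D3:**
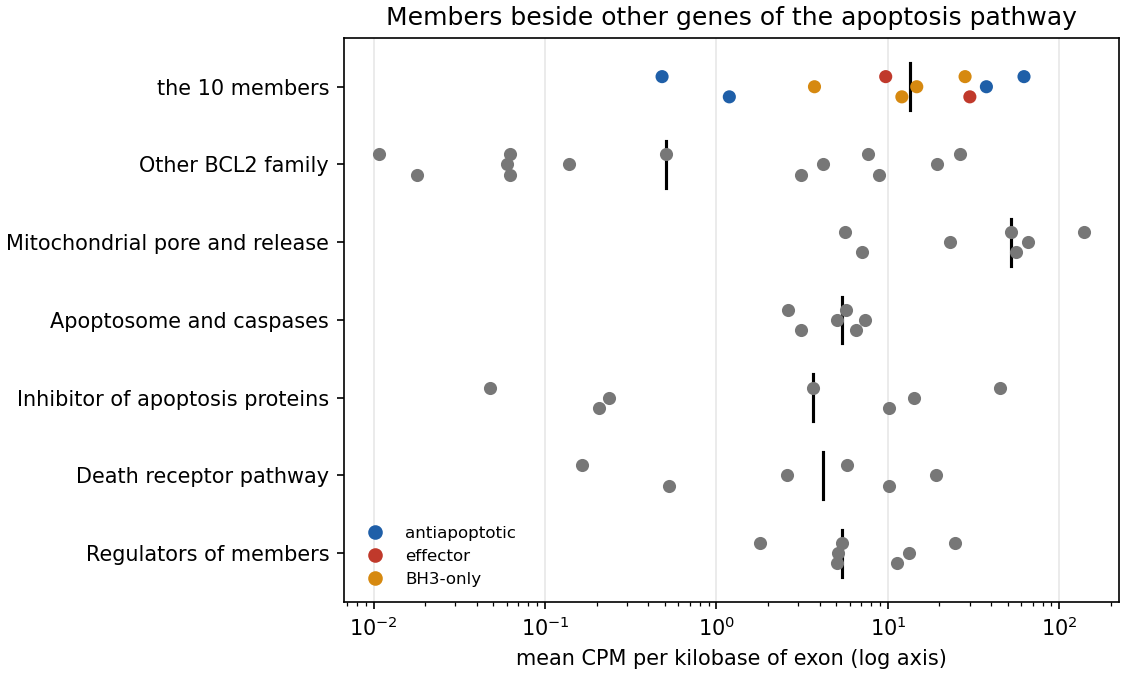
Mean CPM per kilobase of exon (log axis) of the 10 members, coloured by role, and of the genes of 6 other lists in grey; each point is 1 gene and the black bar is the median. The median is 13.4 for the members, 0.505 for the other family genes and 52.3 for the mitochondrial pore and release genes.

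The hairpin's target TMIGD2 had a mean log2 CPM of 4.08 over the pooled groups, which does not check the knockdown. Its ligand HHLA2 had -3.66, near the floor. The paper knocked HHLA2 down in HEL cells, and this RNA level does not show that the protein was absent. The 6 erythroid markers had mean log2 CPM values from 5.52 to 9.72, and the 4 megakaryocyte markers from 5.83 to 10.54. These markers cannot tell HEL from other lines that express them. Markers of other blood cells were mostly near the floor. The highest were LYZ among 4 monocyte and granulocyte markers, at 4.40, and CD79A, 1 of 2 B cell markers in the table, at 2.32, both named after their values were seen. Of the T cell markers 1 of 3 was in the table, at -3.66.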

How the data were processed

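Poly(A) RNA of 3 shCtrl and 3 shTMIGD2 HEL libraries was sequenced. The paper's methods name STAR (2.6.1b) on hg38 and HTSeq (0.6.1) with a refSeq annotation. The deposited table gives, for 31999 genes, the authors' mean log2 CPM over all libraries. The submitters' processing notes name edgeR for it. The methods also describe DESeq2 on genes with a mean count of 1 or above in either group, and whether that filter was used for this table is not given in the sources used here, nor are its library normalization and depth per library. The table's other columns hold the authors' own comparison of the groups (fold change, F statistic, p-value and adjusted p-value) and were not used.

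CPM was taken as 2 to the power of the mean log2 CPM and divided by gene lengths from GENCODE 44 (GRCh38). Counting used a refSeq annotation, so these lengths can include exons that were not counted. The effect on levels per length can differ by gene and was not measured. By symbol 22805 listed genes matched and by RefSeq synonyms 577, or 73.1% in all. Synonym matches to a gene that was also matched otherwise were not removed. A GENCODE gene may therefore be counted repeatedly, also among the protein coding genes. Positions are from GENCODE, not from the table. Canonical coding sequences were translated with Biopython 1.88 to find the BH3 core. Python 3.11.15, numpy 2.4.6, pandas 2.3.3 and matplotlib 3.10.9 were used. Percentiles and shares were checked on made-up values. The members and gene lists were chosen with earlier results of these data known. Named genes are all members and the 2 highest and 2 lowest per length of each pathway list. Of the genes of those lists, 3 are not reported here and were left out of the counts. Alternatives were other gene lengths, other reference genes, the floor taken off and each member left out.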

Additional observations from a re-analysis of the deposited data

How the results depend on the processing

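A value was counted as moved when it changed by more than 1.5 times, since no replicate spread can be computed. The antiapoptotic share moved only without BCL2L1, to 28.5%. The effector share moved to 5.72% without BAX and, under lengths chosen after seeing the data, to 30.3% with the canonical transcript, 11.8% with coding length and 12.0% in CPM undivided by length. The BH3-only share moved to 17.8% without PMAIP1 and, also under a length chosen after seeing the data, to 45.2% with coding length. Of the 45 pairs of members, 44 kept their order with the longest or the canonical transcript, 39 with coding length and 40 in CPM. Among protein coding genes only, 9 of 10 percentiles stayed within 1.5 times, and among genes at 1 CPM or above, 6 of 9. Coding length from RefSeq proteins was not run, and GENCODE coding length took its place. No paired analysis was possible because only 1 pooled value per gene was used. Leaving out each library was not run for the same reason. Depth limits BCL2A1, at 0.480 CPM, most.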
